A study of Mus musculus with 24 samples.

Results

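The 10 genes described here encode ZBP1, a sensor of nucleic acids, and the parts of the inflammasome and pyroptosis pathway that act beside it. They were chosen by symbol: the rows of the gene count table whose Ensembl identifiers map to Zbp1, Ripk3, Aim2, Nlrp3, Pycard, Casp1, Casp4, Gsdmd, Il1b and Il18, which are 10 of 53465 rows. All 10 were found once in the table, and all 10 passed the filter on low counts in both model fits.

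The study concerned IRE1α, an endonuclease of the unfolded protein response, and double-stranded RNA in a transplanted tumour called 2153L, a p53-null mouse model of triple-negative breast cancer. Tumour fragments were grown in the mammary fat pads of female BALB/c mice aged 6 to 8 weeks at transplantation, and treatment began at about 100 mm3. The 4 treatments were the combination of ORIN1001 and docetaxel, docetaxel alone at 10 mg/kg weekly by intraperitoneal injection, ORIN1001 alone at 150 mg/kg daily by oral gavage, and vehicle. ORIN1001 inhibits the ribonuclease of IRE1α, and docetaxel is a microtubule-stabilising chemotherapy. Mice on a single drug were also given vehicle, and every tumour carried the p53 knockout. Each treatment had 3 tumours, labelled as biological replicates, and each tumour gave a J2 library and an input library, so 12 tumours gave 24 libraries in 8 groups. J2 is an antibody that binds double-stranded RNA, and the J2 library holds the RNA pulled down with it. The input library holds total RNA of the bulk tumour. All tumours derive from 1 transplanted line, and in bulk tumour RNA fewer cells of a type and less RNA per cell cannot be told apart.

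ZBP1 binds left-handed double-stranded nucleic acid and recruits the kinase RIPK3, which can lead to necroptosis, and it is itself induced by interferon. AIM2, a receptor for cytosolic DNA, and NLRP3, a sensor of cellular disturbance, each join through the adaptor ASC, the product of Pycard, to the protease encoded by Casp1. That protease matures the cytokine precursors encoded by Il1b and Il18 and cleaves gasdermin D, the product of Gsdmd, whose freed end forms pores in the plasma membrane. Casp4 encodes an inflammatory protease that responds to cytosolic lipopolysaccharide and also cleaves gasdermin D. Myeloid cells are a main source of many of these transcripts, and epithelial cells can express some of them.

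The libraries differed in depth. Input libraries held 11.9 to 63.3 M gene counts (M for mega) apart from the third docetaxel tumour, which had 3.27 M. In that library 67.1% of counts lay at Gm26917 and Gm42418, a pair of loci that collect ribosomal RNA reads, against 0.431% to 2.86% in the other 11 inputs. It held 100 counts over all 10 genes, so that a single count was worth 1.16 CPM (counts per mega of library, scaled by the TMM method of edgeR, the unit of all levels here), and it counted Aim2 with 1 read and Il18 with 0. The other inputs held 1456 to 7913 counts over the 10 genes. Among J2 libraries the combination held 2.54 to 11.0 M counts with 22.7% to 56.6% at the ribosomal loci, against 6.69 to 18.7 M and 1.25% to 13.8% in the other 9. Because the third docetaxel tumour shared its spread with every group in a fit, values are given with all libraries and without that tumour wherever the call differed.

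In input RNA Aim2 rose under the combination relative to vehicle, passing an adjusted p of 0.05 with all libraries. Gsdmd and Nlrp3 passed the same test once the third docetaxel tumour was left out. With all libraries Gsdmd passed by DESeq2 (adjusted p = 0.0165) and both passed by limma-voom (adjusted p = 0.0023 and 0.00725). The other 7 genes did not pass in any comparison of inputs by edgeR's quasi-likelihood test with Benjamini-Hochberg adjustment over all genes, with or without that tumour. Of 17768 genes tested, 2.80% were called higher in combination than in vehicle tumours, and of the 10 genes 1 was. With the third docetaxel tumour left out, 14.6% of 18475 genes were called higher and 3 of the 10 genes were. The median log2 fold change of the 10 genes was 0.06 with all libraries, beside -0.03 over all genes tested.

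**Figure D1:**
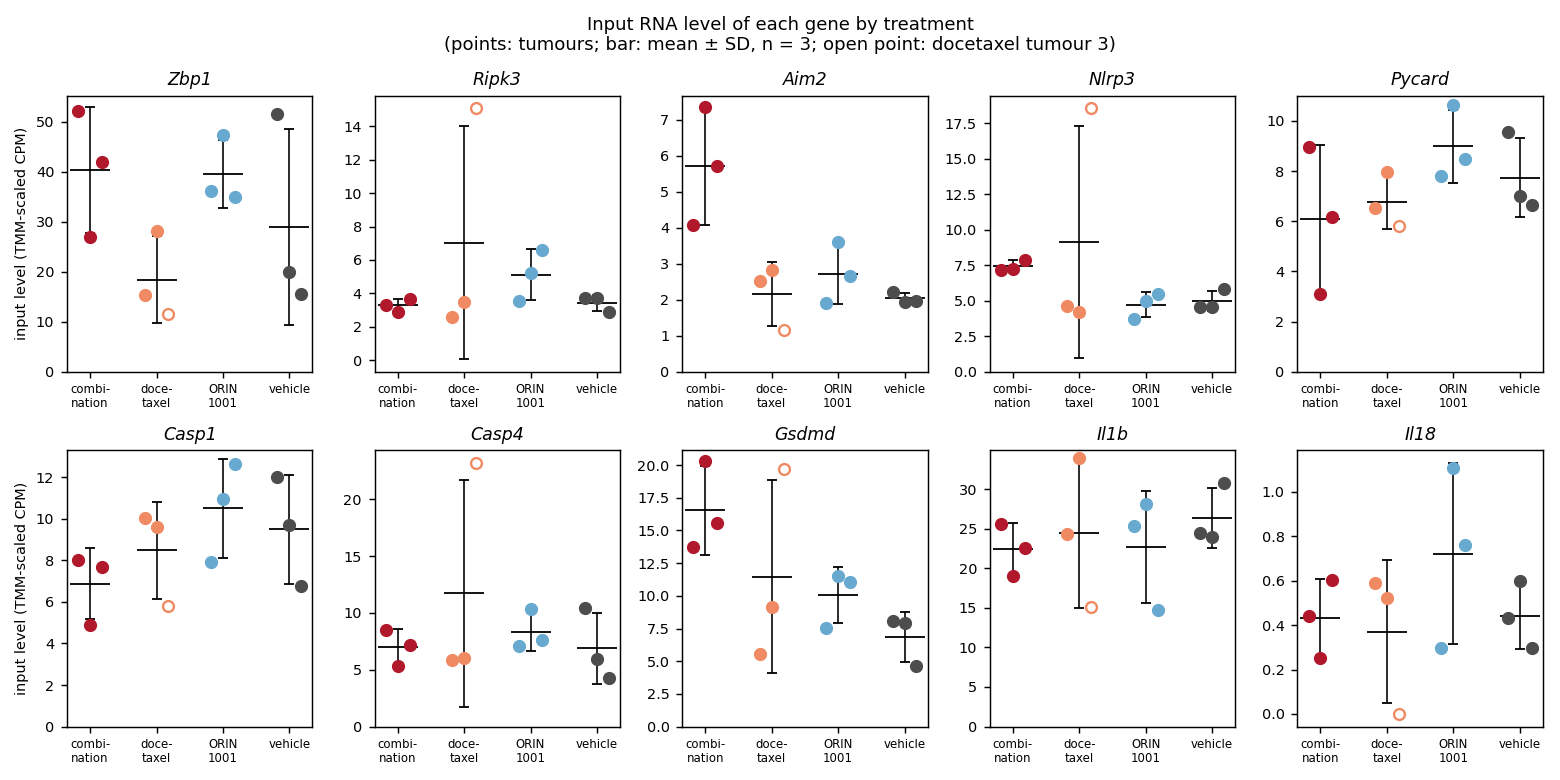
Input level in TMM-scaled CPM (vertical axis, linear, 1 scale per gene) of the 10 genes in combination, docetaxel, ORIN1001 and vehicle tumours. Points are tumours, bars show mean ± SD (n = 3) and the open point is the third docetaxel tumour; Aim2 lay between 4.07 and 7.36 CPM in combination tumours, above every other tumour.

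Zbp1 and Ripk3 form the necroptosis arm. Zbp1 stood at 52.1, 26.9 and 41.9 CPM in combination inputs, 15.4, 28.2 and 11.6 CPM in docetaxel inputs, 36.2, 47.3 and 34.9 CPM in ORIN1001 inputs, and 51.5, 19.9 and 15.6 CPM in vehicle inputs. The vehicle group alone spanned nearly the whole range, with its first tumour level with the highest combination tumour. By group mean the order was combination at 40.3 ± 12.7 CPM, ORIN1001 at 39.5 ± 6.80, vehicle at 29.0 ± 19.6 and docetaxel at 18.4 ± 8.69 (SD, n = 3 each). Neighbouring groups in this order overlapped. The log2 fold change of combination over vehicle was 0.52 ± 0.44 (SE; adjusted p = 0.473, edgeR). Over docetaxel the combination was higher by 1.12 ± 0.46 on the log2 scale, and although the input groups did not overlap once scaled among inputs, the adjusted p was 0.151 (edgeR). Ripk3, the kinase downstream of ZBP1, lay at 2.89 to 3.68 CPM in combination inputs and 2.87 to 3.72 CPM in vehicle inputs, with a log2 fold change of -0.01 ± 0.50. It reached 5.22 and 6.58 CPM in a pair of ORIN1001 tumours, but the log2 fold change of 0.55 ± 0.49 over vehicle did not pass (adjusted p = 1, edgeR). The docetaxel mean of 7.04 ± 6.99 CPM for Ripk3 came from 13 counts in the third tumour, at 15.1 CPM, against 2.57 and 3.45 CPM in the other two.

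Aim2, the DNA receptor, had 4.07, 7.36 and 5.72 CPM in combination inputs, 2.52, 2.84 and 1.16 CPM in docetaxel inputs, 1.92, 3.62 and 2.65 CPM in ORIN1001 inputs, and 2.21, 1.95 and 1.98 CPM in vehicle inputs. All 3 combination tumours lay above the 9 others. The combination was 2.88-fold higher than vehicle, a log2 fold change of 1.52 ± 0.33 (adjusted p = 0.0383, edgeR), and 1.14 ± 0.33 higher than ORIN1001 on the log2 scale (adjusted p = 0.0453, edgeR). Over docetaxel it was 1.28 ± 0.36 higher with an adjusted p of 0.0505 (edgeR), and 1.18 ± 0.33 with 0.0267 without the third docetaxel tumour. The direction held in all 12 omissions of 1 tumour, with log2 values of 1.33 to 1.71 over vehicle. The call against vehicle was lost, with adjusted p up to 0.16, when any 1 of the 3 vehicle tumours, any 1 of the 3 ORIN1001 tumours, or the second or the third combination tumour was left out. The call against ORIN1001 was lost in 10 of the 12 omissions, with adjusted p up to 0.176. With plain library totals in place of TMM, a scaling chosen after seeing the data, Aim2 was 1.64 ± 0.55 above vehicle on the log2 scale and not called (adjusted p = 0.138, edgeR), and 0 genes of all those tested were, with 2660 at unadjusted p under 0.05.

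Nlrp3, whose product senses potassium loss and other disturbances, had 7.16, 7.24 and 7.91 CPM in combination inputs, 4.60, 4.22 and 18.6 CPM in docetaxel inputs, 3.74, 4.96 and 5.45 CPM in ORIN1001 inputs, and 4.54, 4.60 and 5.83 CPM in vehicle inputs. The combination tumours lay above all ORIN1001 and vehicle tumours, and the 18.6 CPM of the third docetaxel tumour was 16 counts. With all libraries the log2 fold change over vehicle was 0.62 ± 0.44 (adjusted p = 0.385, edgeR). Without that tumour the log2 fold change was nearly the same at 0.64 but its SE fell to 0.20, and the adjusted p was 0.0361 (edgeR). On the same terms the combination was higher than docetaxel by 0.85 ± 0.23 (adjusted p = 0.0232) and than ORIN1001 by 0.74 ± 0.20 (adjusted p = 0.0175) on the log2 scale, both by edgeR.

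Because Aim2 and Nlrp3 were the inflammasome sensors among the 10 genes that were called in one of these fits, the 250 bases before their annotated starts are shown, taken from RefSeq on GRCm38.p6 and written from 5′ to 3′ along the gene's strand. The Aim2 window at chr1:173420354-173420603 on the plus strand lies before the start of a transcript inside the longer RefSeq span of Aim2, chr1:173349547-173466040. The Nlrp3 window at chr11:59541319-59541568, also on the plus strand, ends at the first base before the gene's span, chr11:59541569-59566955. Capitals mark the single motif match.
Aim2: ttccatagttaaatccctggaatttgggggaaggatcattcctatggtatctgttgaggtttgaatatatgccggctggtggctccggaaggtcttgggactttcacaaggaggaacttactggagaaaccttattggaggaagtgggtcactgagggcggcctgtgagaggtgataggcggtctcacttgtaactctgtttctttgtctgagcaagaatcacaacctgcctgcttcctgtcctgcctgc
Nlrp3: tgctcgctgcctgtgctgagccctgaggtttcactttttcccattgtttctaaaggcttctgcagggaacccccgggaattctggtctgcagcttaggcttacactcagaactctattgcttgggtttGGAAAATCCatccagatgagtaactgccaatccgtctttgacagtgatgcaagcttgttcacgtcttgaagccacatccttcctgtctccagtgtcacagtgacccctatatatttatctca
The motifs searched on both strands were an interferon-response core (GAAANNGAA), an interferon-gamma-activated site (TTCNNNGAA) and a kappaB site (GGANNTTCC), written without overlap between them. Of the 10 genes 8 had promoter entries, with 10 windows in all. Zbp1 and Gsdmd had no entry and were not searched. The Nlrp3 window held a match to the kappaB pattern read on the opposite strand, 122 bases before the start. No other window searched matched any of the 3 patterns as written. Other forms of these sites were not searched, so a window without a match may still hold one. Among 32851 promoter windows of the same length, 7.13% held the interferon-response core, 7.02% the interferon-gamma-activated site and 3.59% the kappaB site.

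Pycard, Casp1 and Casp4, the adaptor and the inflammatory proteases, were not called in any comparison of inputs. Pycard had 8.97, 3.08 and 6.19 CPM in combination inputs, against 9.56, 6.997 and 6.67 CPM in vehicle inputs, with a log2 fold change of -0.30 ± 0.34 (adjusted p = 0.606, edgeR). The second combination tumour held the lowest Pycard level of all 12. Casp1 had 8.04, 4.91 and 7.68 CPM in combination inputs, against 12.0, 9.72 and 6.77 CPM in vehicle inputs, with a log2 fold change of -0.42 ± 0.30 (adjusted p = 0.388, edgeR). For Casp4 the log2 fold change was 0.08 ± 0.48, with 5.35 to 8.53 CPM in combination inputs and 4.31 to 10.4 CPM in vehicle inputs. Casp1 and Casp4 are neighbours on chromosome 9, at chr9:5298517-5307281 and chr9:5308849-5336791, with 1567 bases between their RefSeq spans. In docetaxel and ORIN1001 inputs Pycard ranged between 5.80 and 7.95 CPM and between 7.81 and 10.6 CPM, Casp1 between 5.80 and 10.1 CPM and between 7.92 and 12.7 CPM. Casp4 ranged between 7.11 and 10.3 CPM in ORIN1001 inputs and stood at 5.83, 6.06 and 23.2 CPM in docetaxel inputs, the last being 20 counts of the third tumour.

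Gsdmd, the pore-forming substrate, had 13.8, 20.3 and 15.5 CPM in combination inputs, 5.57, 9.11 and 19.7 CPM in docetaxel inputs, 7.57, 11.5 and 11.0 CPM in ORIN1001 inputs, and 8.07, 7.90 and 4.63 CPM in vehicle inputs. Every combination tumour lay above every ORIN1001 and vehicle tumour, and the highest docetaxel value, in the third tumour, was 17 counts. By group mean the combination at 16.5 ± 3.39 CPM came before docetaxel at 11.5 ± 7.38, ORIN1001 at 10.0 ± 2.15 and vehicle at 6.87 ± 1.94 (SD, n = 3 each). The place of docetaxel above ORIN1001 came from the third tumour, and by plain library totals docetaxel averaged 7.45 CPM and ORIN1001 12.0 CPM. The combination was 2.49-fold above vehicle, a log2 fold change of 1.31 ± 0.39 with an adjusted p of 0.0633 (edgeR). Without the third docetaxel tumour the value was 1.32 ± 0.28 with an adjusted p of 0.0123 (edgeR). In that fit the combination also exceeded docetaxel by 1.25 ± 0.32 (adjusted p = 0.0206) and ORIN1001 by 0.80 ± 0.28 (adjusted p = 0.0434) on the log2 scale, both by edgeR.

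The cytokine genes Il1b and Il18 were not called in any comparison of inputs. Il1b had 25.6, 19.1 and 22.5 CPM in combination inputs, against 24.5, 23.97 and 30.8 CPM in vehicle inputs, a log2 fold change of -0.20 ± 0.29 (adjusted p = 0.709, edgeR). In docetaxel inputs Il1b ranged between 15.1 and 33.9 CPM and in ORIN1001 inputs between 14.7 and 28.1 CPM. Il18 was near the limit of these libraries, with 0 to 39 counts per input and 0.25 to 0.60 CPM in combination inputs, against 0.30 to 0.60 CPM in vehicle inputs. The 0 of Il18 in the third docetaxel input allows up to 3.48 CPM, at 3 counts, and covers counting error only. Its log2 fold change of combination over vehicle was 0.04 ± 0.55.

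**Figure D2:**
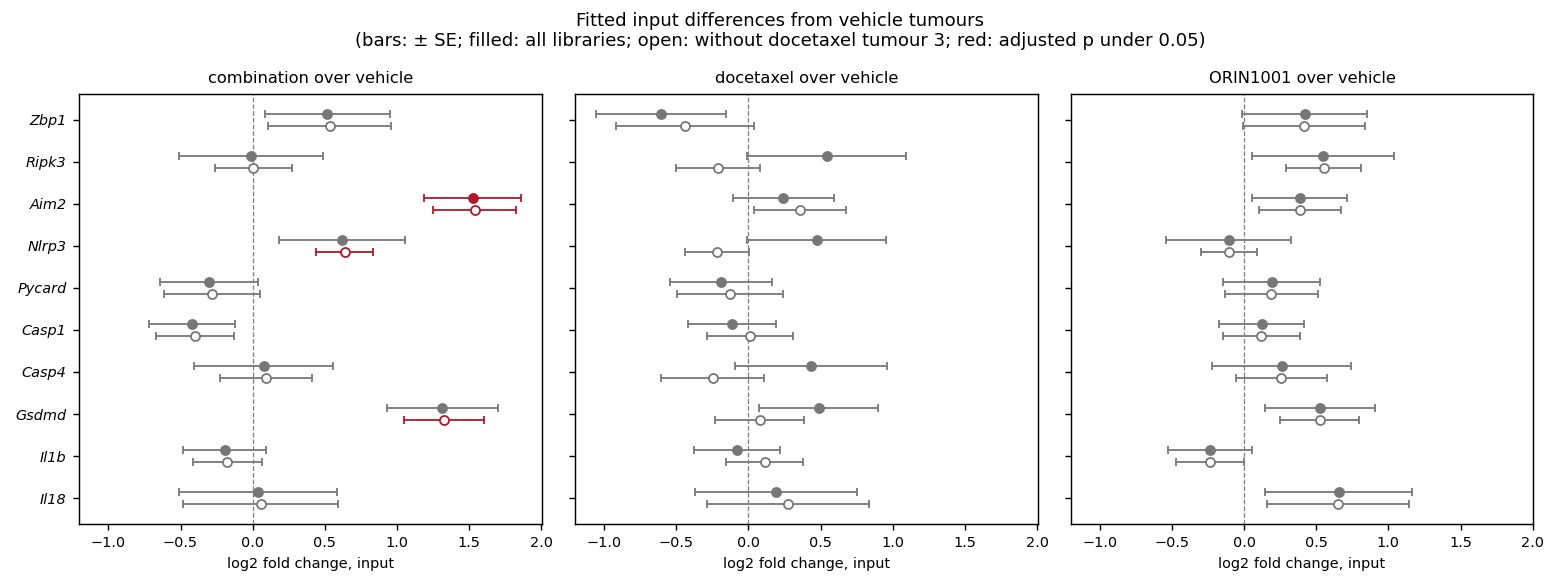
Fitted log2 fold change (horizontal axis, ± SE) of each gene in input RNA for combination, docetaxel and ORIN1001 over vehicle. Filled points use all libraries, open points leave out the third docetaxel tumour, and red marks adjusted p under 0.05; in the combination panel Aim2 is at 1.52 and Gsdmd at 1.31, and no gene is red in the other panels.

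None of the 10 genes was called for either drug alone. Docetaxel against vehicle called 0 of 17768 genes, which is 0% of those tested, at adjusted p under 0.05 by edgeR, although 1857 had an unadjusted p under 0.05; DESeq2 called 173 and limma-voom 27. ORIN1001 against vehicle likewise called 0 by edgeR (787 at unadjusted p under 0.05), 25 by DESeq2 and 2 by limma-voom, and in both comparisons 0 of the 10 genes were called by any of the 3 tools. The largest values for docetaxel were -0.60 ± 0.45 for Zbp1 and 0.54 ± 0.55 for Ripk3, and those for ORIN1001 were 0.65 ± 0.51 for Il18 and 0.55 ± 0.49 for Ripk3, all on the log2 scale. Without the third docetaxel tumour the docetaxel values were -0.44 ± 0.48 for Zbp1 and -0.21 ± 0.29 for Ripk3, whose sign turned. The combination against ORIN1001 called 7.20% of genes higher and 1 of the 10 genes, Aim2. Leaving out the third docetaxel tumour made these 18.5% and 3 of 10. The combination against docetaxel called 7.43% of genes in either direction and 0 of the 10 genes; 2 of them, Zbp1 and Aim2, had unadjusted p under 0.05, and without the third docetaxel tumour 12.5% of genes were called higher and 3 of the 10 genes, Aim2, Nlrp3 and Gsdmd.

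Whether the combination exceeded the sum of the single drugs was asked with an interaction term, the log2 effect of ORIN1001 given with docetaxel minus its effect given alone. No gene was called with all libraries by edgeR (0%, with 3134 genes at unadjusted p under 0.05), while DESeq2 called 788 and limma-voom 3985. The values were 0.89 ± 0.48 for Aim2 (adjusted p = 0.366, edgeR), 0.70 ± 0.63 for Zbp1, 0.30 ± 0.56 for Gsdmd and 0.25 ± 0.65 for Nlrp3, and on the negative side -1.10 ± 0.74 for Ripk3, -0.81 ± 0.78 for Il18, -0.62 ± 0.71 for Casp4, -0.43 ± 0.43 for Casp1 and -0.30 ± 0.49 for Pycard. The median of the 10 genes was -0.09. Once the third docetaxel tumour was left out, 8.27% of genes were called and 0 of the 10, with Nlrp3 nearest at 0.96 ± 0.30 (adjusted p = 0.0651, edgeR).

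Groups that did not overlap were no more frequent among the 10 genes than among all genes. Overlap was judged on levels scaled by TMM among the inputs alone, which can order tumours differently from the CPM given above. By that CPM Zbp1 overlapped in combination against docetaxel, at 26.9 and 28.2 CPM in the second tumour of each. So did Nlrp3 in docetaxel against vehicle without the third docetaxel tumour. In combination against vehicle inputs 3 of the 10 did not overlap, all higher (Aim2, Nlrp3 and Gsdmd), against 47.5% of all genes tested in either direction. In combination against ORIN1001 the same 3 did not overlap, against 53.4% of all genes, and in combination against docetaxel Zbp1 and Aim2 did not, against 25.3%. For docetaxel and for ORIN1001 against vehicle 0 of the 10 did not overlap, against 15.0% and 12.5% of all genes. Without the third docetaxel tumour 5 of the 10 did not overlap in combination against docetaxel, with Zbp1, Aim2, Nlrp3 and Gsdmd higher and Casp1 lower, against 54.8% of all genes, and 2 of the 10 did not in docetaxel against vehicle, with Aim2 higher and Nlrp3 lower, against 33.6%.

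Among other sensors and regulators of inflammasomes, 2 of the 11 genes tested rose under the combination relative to vehicle and 0 fell. Over all genes 2.80% were called higher and 1.98% lower. The list median was 0.97 on the log2 scale, beside -0.03 for all genes. The 2 that rose were Naip5 and Naip6, receptors that pass bacterial flagellin to NLRC4. Naip5 had 3.58, 8.30 and 8.46 CPM in combination inputs, against 2.07, 1.93 and 1.60 CPM in vehicle inputs, a log2 fold change of 1.91 ± 0.39 (adjusted p = 0.0348, edgeR). Naip6 was 1.95 ± 0.43 higher on the log2 scale (adjusted p = 0.0387, edgeR). Nlrp1b, the sensor of anthrax lethal factor, and Nlrc4, the NAIP partner, had values of 1.50 ± 0.39 and 1.38 ± 0.43 that missed the threshold at adjusted p of 0.0509 and 0.0736 (edgeR). Without the third docetaxel tumour 5 of the 11 rose, with Naip2, Nlrc4 and Nlrp1b added, against 14.6% of all genes. In that fit P2rx7, Nek7, Txnip, Mefv and Nlrp12 lay within 0.15 of 0 on the log2 scale. The Naip genes are related copies, and reads may be shared among them. Naip5 also rose against docetaxel and ORIN1001 inputs, by 1.61 ± 0.42 and 1.80 ± 0.39 on the log2 scale (adjusted p = 0.0418 and 0.0207, edgeR).

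Of 8 partners of ZBP1 and of cell-death signalling 0 were called with all libraries, with a median of 0.13 on the log2 scale. Mlkl, which executes necroptosis, was at 0.06 ± 0.27 and Adar, which edits double-stranded RNA, at 0.20 ± 0.19 in combination over vehicle inputs. Cyld, a deubiquitinase, and Fadd, a death-domain adaptor, had the smallest p-values, at 0.35 ± 0.16 and -0.60 ± 0.29. In the fit that left out the third docetaxel tumour, Cyld rose (0.37 ± 0.12, adjusted p = 0.0374, edgeR) and Fadd fell (-0.59 ± 0.14, adjusted p = 0.018, edgeR). There 14.6% of all genes were called higher and 13.4% lower. Of 4 other executioners of pyroptosis tested 0 were called against vehicle, with or without that tumour. Gsdme, another pore-forming gasdermin, was at -0.67 ± 0.48 and Ninj1, which ruptures the membrane of dying cells, at -0.37 ± 0.27 in combination over vehicle inputs.

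Among 13 genes of interleukin-1 and interleukin-18 signalling 2 fell under the combination relative to vehicle and 0 rose, while 1.98% of all genes were called lower. Il1rap, the shared receptor subunit, had 23.7, 11.4 and 21.8 CPM in combination inputs, against 44.6, 52.6 and 55.0 CPM in vehicle inputs, a log2 fold change of -1.37 ± 0.33 (adjusted p = 0.0456, edgeR). It was as low in the first and second docetaxel inputs, at 21.8 and 23.3 CPM. Il33, an alarmin, was also called, but 1 vehicle tumour at 105 CPM stood far above the other two at 2.15 and 2.95 CPM. Combination inputs held 0.503 to 0.882 CPM of Il33, and its fitted log2 fold change was -5.68 ± 1.42. Il18bp, a decoy receptor for interleukin-18, was not called against vehicle (0.87 ± 0.41) but rose against docetaxel, with 12.4, 7.74 and 11.3 CPM in combination inputs and 2.46, 4.06 and 1.16 CPM in docetaxel inputs (log2 fold change 1.87 ± 0.46, adjusted p = 0.0333, edgeR). When the third docetaxel tumour was left out, 3 of the 13 fell, against 13.4% of all genes, with Il1r1, the signalling receptor, added at -1.10 ± 0.37 (adjusted p = 0.0463, edgeR).

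Of 13 regulators of interferon and NF-kappaB signalling tested, 1 rose under the combination relative to vehicle and 0 fell. Over all genes 2.80% were called higher and 1.98% lower. Irf1, an interferon-induced transcription factor, had 113, 103 and 89.2 CPM in combination inputs, against 71.5, 50.1 and 45.5 CPM in vehicle inputs, a log2 fold change of 0.91 ± 0.22 (adjusted p = 0.0453, edgeR). All 3 combination inputs lay above the vehicle inputs. The other regulators were not called: Irf8 was at 1.02 ± 0.30 (adjusted p = 0.0641, edgeR), whereas Irf7 was at 0.00 ± 0.44, Irf9 at -0.05 ± 0.21, Nfkb1 at -0.16 ± 0.14 and Rela at -0.36 ± 0.20, and the list median was -0.16. Of 14 tested without the third docetaxel tumour, 2 rose, Irf1 and Irf8, against 14.6% of all genes. Another 2 fell, against 13.4% of all genes, so both counts were near the share over all genes. Those that fell were Ifngr1, a subunit of the interferon-gamma receptor (-0.64 ± 0.16, adjusted p = 0.0183, edgeR), and Jak2, a kinase of that receptor (-0.42 ± 0.13, adjusted p = 0.0356, edgeR).

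**Figure D3:**
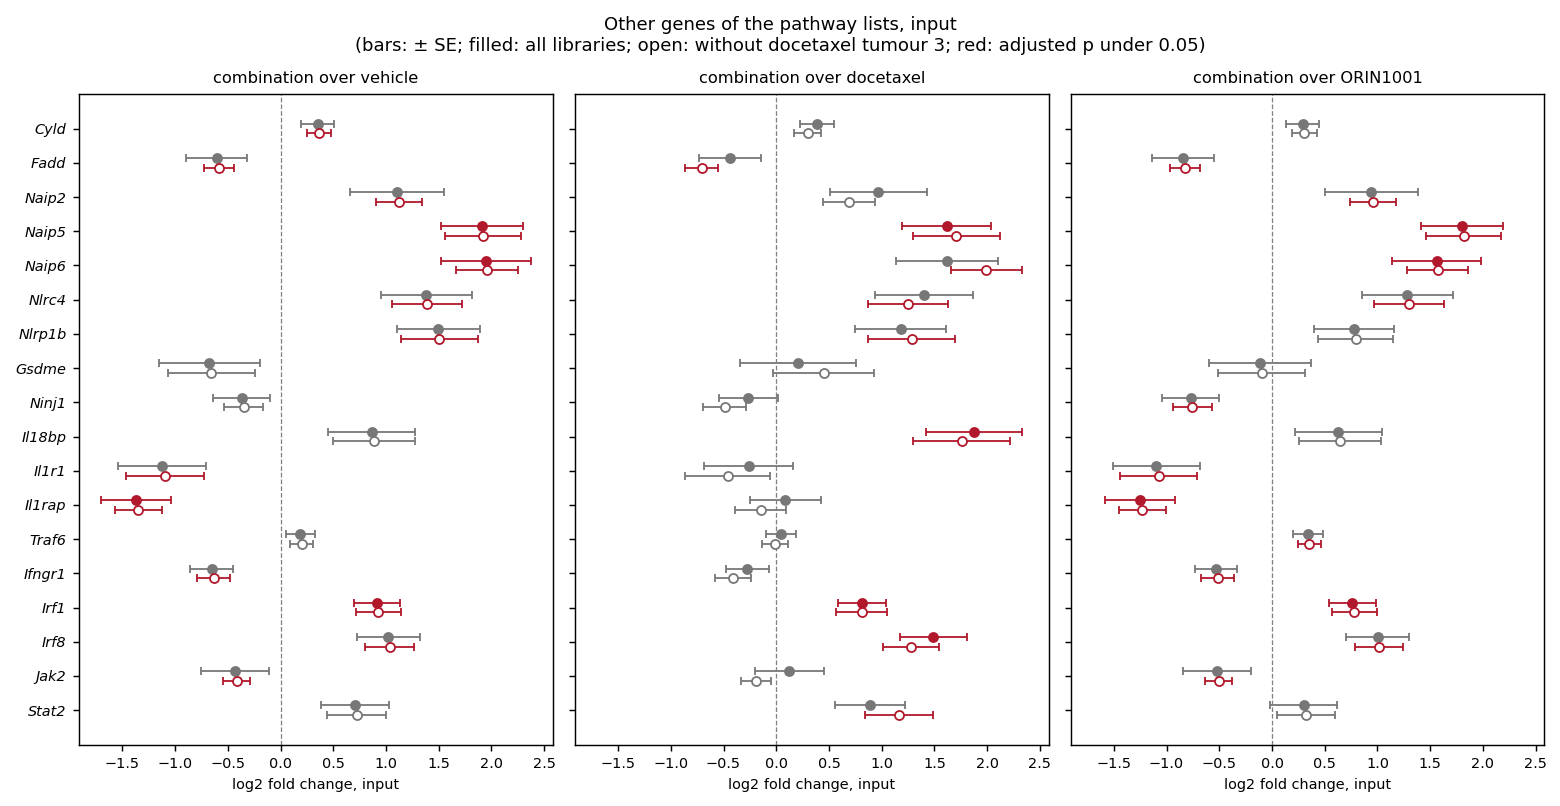
Fitted log2 fold change in input RNA (horizontal axis, ± SE) of genes from the 5 pathway lists that were called in a comparison of inputs or had the smallest p-values, for combination over vehicle, docetaxel and ORIN1001. Filled points use all libraries, open points leave out the third docetaxel tumour and red marks adjusted p under 0.05; Il33 at -5.68 over vehicle is left off to keep the scale, and Naip6 at 1.95 and Naip5 at 1.91 are the farthest right in the vehicle panel.

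Some markers of immune cells also differed between combination and vehicle inputs, where 2.80% of all genes were called higher and 1.98% lower with all libraries. Over 8 dendritic cell markers the summed level was 81.8 to 87.6 CPM in combination inputs and 36.0 to 45.2 CPM in vehicle inputs, and 2 of the 7 tested were called higher. For natural killer and cytotoxic cells the sums over 9 markers were 13.5 to 17.5 CPM in combination and 4.74 to 5.43 CPM in vehicle inputs, with 2 of 8 called higher, and for 9 T cell markers they were 24.3 to 38.4 CPM in combination and 14.3 to 17.2 CPM in vehicle inputs, with 0 called. The 10 macrophage and monocyte markers summed to 575 to 793 CPM in combination inputs and 361 to 542 CPM in vehicle inputs, again with 0 called, while 3 of 8 neutrophil markers tested were called lower, with sums over all 9 of 21.0 to 32.7 CPM in combination and 49.9 to 98.2 CPM in vehicle inputs and 1 marker at 0 throughout the combination inputs. B cell markers summed to at most 0.838 CPM in combination and 0.625 CPM in vehicle inputs, and 1 of the 4 was at 0 throughout the combination inputs. With the third docetaxel tumour left out, 3 dendritic cell, 3 natural killer, 2 T cell and 2 macrophage markers were called higher and 5 neutrophil markers lower, beside 14.6% of all genes higher and 13.4% lower. Epithelial markers, which fit the labelled mammary tumour, summed to 1400 to 1950 CPM in combination and 1860 to 2480 CPM in vehicle inputs. The part of these cell types in the differences of Aim2, Nlrp3 and Gsdmd was not tested.

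The genes whose input levels most resembled those of the 10 were sought among 12221 others by Pearson's r of log2 CPM over the 12 inputs, as a description of libraries that share depth and treatment. Zbp1 was most like Lgals3bp (r = 0.966), Ddx58 (0.945) and Ly6e (0.939). Aim2 was most like Il10ra (0.982), Tmem229b (0.959) and Irf5 (0.948), and Gsdmd most like P2ry14 (0.969), Adap2 (0.955) and Naip6 (0.949). The nearest gene to Casp4 was Mlkl (0.928). Over the 11 inputs other than the third docetaxel tumour the order changed, to Xaf1 (0.967), Parp9 (0.965) and Ddx60 (0.957) for Zbp1 and to Fgd2 (0.986), Myo1g (0.983) and Rad51b (0.982) for Aim2. Mlkl then left the 3 genes nearest to Casp4, which were led by Trim12c (0.947), and Naip6 left those nearest to Gsdmd, which were led by B4galt5 (0.966).

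In the J2 libraries most of the 10 genes were depleted. Averaged over treatments, 6 of the 10 were lower in J2 than in the input of the same tumour and 0 were higher, in a fit with the tumour as a block, while 30.0% of 17338 genes were called lower. The 6 were Zbp1, Ripk3, Aim2, Pycard, Casp1 and Casp4, and their log2 values were between -1.52 and -0.66. Nlrp3, Gsdmd and Il1b were near equality at -0.10 ± 0.12, -0.02 ± 0.11 and 0.05 ± 0.11. The median of the 10 genes was -0.75, beside -0.05 over all genes tested. Without the third docetaxel tumour 7 of the 10 were lower, with Il18 added at -0.83 ± 0.34 (adjusted p = 0.042, edgeR), against 31.9% of all genes. These values compare shares of each library, and less of a transcript in J2 does not mean that none was bound.

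Averaged over treatments Pycard had the lowest value, with J2 below input in 12 of 12 tumours by TMM scaling. By plain library totals the third docetaxel tumour, with 5 input counts of Pycard, stood at 1.06. In ORIN1001 tumours alone Casp1, at -1.52 ± 0.28, lay below Pycard, at -1.33 ± 0.34. The J2 level of Pycard was 0.53, 1.75 and 4.80 CPM in combination tumours, 2.04, 3.56 and 3.02 CPM in docetaxel tumours, 3.03, 3.37 and 4.32 CPM in ORIN1001 tumours, and 1.91, 1.72 and 0.96 CPM in vehicle tumours. The fitted log2 J2 over input of Pycard was -1.52 ± 0.19 over all treatments (adjusted p = 1.47e-05, edgeR) and -2.35 ± 0.38 in vehicle tumours (adjusted p = 0.000437, edgeR). The low value of the first combination tumour was a single count. Zbp1 was evenly depleted in vehicle tumours, at -1.31, -1.34 and -1.17 log2 units per tumour, and in ORIN1001 tumours, at -1.01, -1.34 and -1.18, although its input level varied widely in the vehicle group. Casp1 stood between -1.72 and -0.92 in vehicle tumours and between -1.58 and -1.46 in ORIN1001 tumours.

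By treatment, 5 of the 10 genes were lower in J2 than in input in vehicle tumours (Zbp1, Ripk3, Pycard, Casp1 and Casp4), against 21.1% of all genes. In ORIN1001 tumours 3 were lower (Zbp1, Pycard and Casp1), against 14.9%, and 4 were without the third docetaxel tumour, with Casp4 added, against 19.6%. In docetaxel tumours 2 were lower (Pycard and Ripk3), against 12.0%, and without the third tumour 4 were, with Zbp1 and Casp1 added, against 20.9%. In combination tumours 1 was lower, Aim2 at -1.02 ± 0.38 (adjusted p = 0.0449, edgeR), against 20.5%, and 1 was higher, Gsdmd, against 16.3%. Leaving out the third docetaxel tumour added Pycard at -0.99 ± 0.39 (adjusted p = 0.0452, edgeR) to those lower in combination tumours, against 24.7%. The Aim2 call was lost in 10 of 12 omissions of a tumour, with adjusted p up to 0.237; it held without the third docetaxel tumour and without the first combination tumour.

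**Figure D4:**
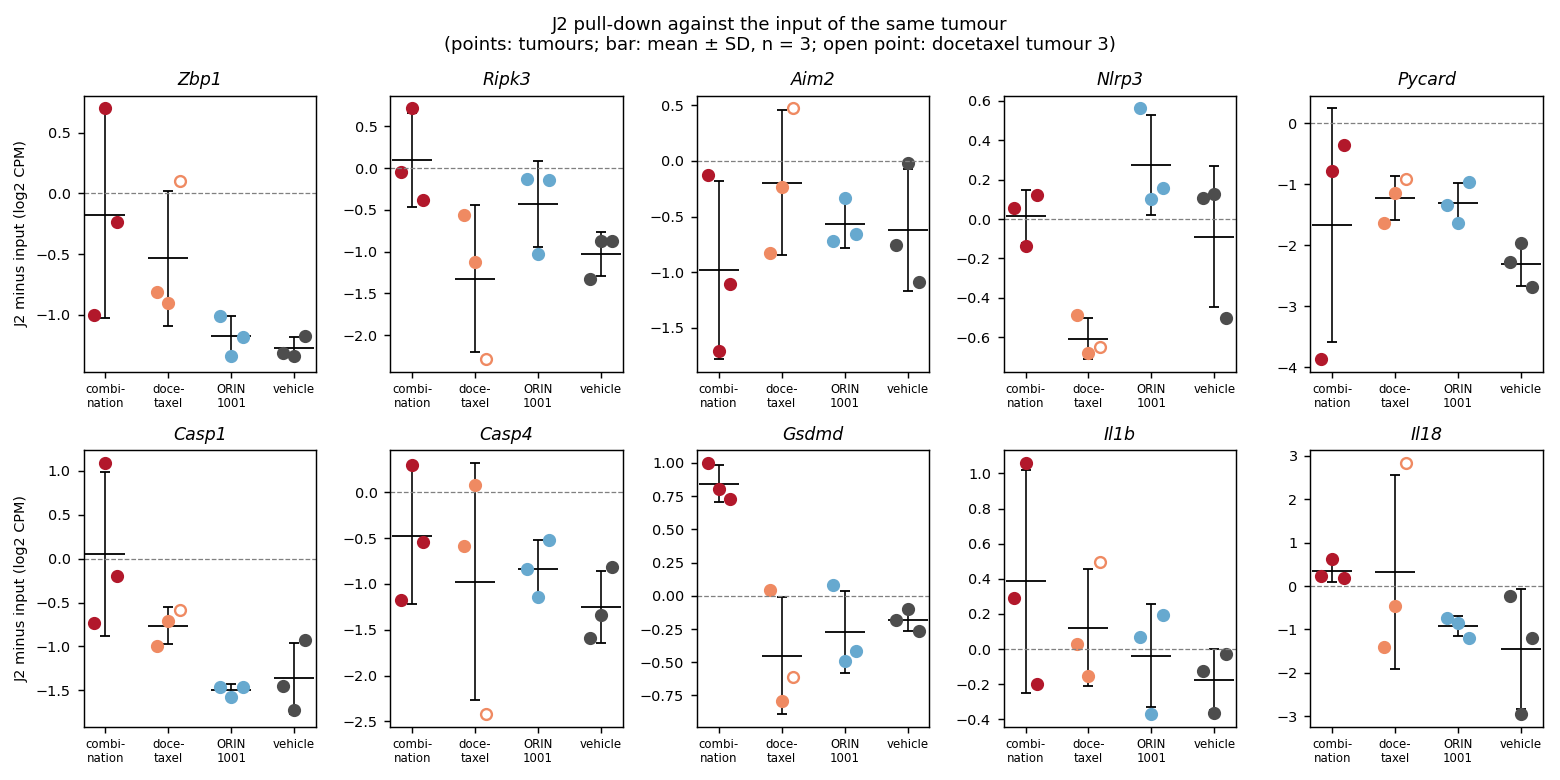
J2 minus input in log2 CPM (vertical axis, 1 scale per gene) for each tumour by treatment, with the dashed line at equal shares. Points are tumours, bars show mean ± SD (n = 3) and the open point is the third docetaxel tumour. With the TMM scaling plotted, all 3 combination tumours lie above 0 for Gsdmd, at 1.00, 0.80 and 0.73, where plain library totals put the second at -0.66. All 12 tumours lie below 0 for Pycard as plotted, where plain library totals put the third docetaxel tumour at 1.06.

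Gsdmd was the 1 of the 10 genes called higher in J2 than in input, in combination tumours. It had 27.7, 35.5 and 25.8 CPM in combination J2 libraries, 5.75, 5.24 and 12.9 CPM in docetaxel J2 libraries, 8.03, 8.18 and 8.25 CPM in ORIN1001 J2 libraries, and 7.09, 7.37 and 3.85 CPM in vehicle J2 libraries. The 3 combination libraries lay above all 9 others. With TMM scaling J2 exceeded input in each combination tumour, with a fitted log2 value of 0.84 ± 0.22 (adjusted p = 0.00776, edgeR). Without the tumour block the value was 0.84 ± 0.39 and did not pass (adjusted p = 0.114, edgeR), and neither did that of Aim2 (adjusted p = 0.0813, edgeR). The direction for Gsdmd depended on the scaling. By plain library totals the tumours stood at 0.21, -0.66 and 0.13 log2 units, and the fitted value was -0.11 ± 0.45, beside a median of -1.07 over all genes. By library totals without the ribosomal loci they stood at 0.87, 0.50 and 0.48, and the fitted value of 0.61 ± 0.25 did not pass (adjusted p = 0.0685, edgeR), beside a median of -0.36 over all genes. The TMM factors were 0.741, 0.487 and 0.905 in combination J2 libraries and 1.29, 1.34 and 1.37 in the inputs of the same tumours. Over all genes J2 was called higher for 2825 and lower for 3550 in combination tumours by TMM, higher for 251 and lower for 6456 by plain library totals, and higher for 1677 and lower for 4247 without the ribosomal loci. Every one of the 12 omissions of a tumour kept the call made with TMM scaling, with log2 values of 0.77 to 0.95. In vehicle tumours the value was -0.18 ± 0.22.

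The change in J2 over input between combination and vehicle tumours was called higher for 3 of the 10 genes, Gsdmd, Zbp1 and Casp1, against 12.7% of all genes, and lower for 0. For Gsdmd the difference was 1.02 ± 0.31 on the log2 scale (adjusted p = 0.0218, edgeR). For Zbp1 it was 1.12 ± 0.36 (adjusted p = 0.0306, edgeR), with per-tumour values of -0.998, 0.70 and -0.23 in combination tumours and -1.31, -1.34 and -1.17 in vehicle tumours, so that with TMM scaling all 3 combination tumours were above the vehicle tumours but spread widely. For Casp1 it was 1.47 ± 0.42 (adjusted p = 0.0184, edgeR), with -0.74, 1.09 and -0.19 in combination tumours and -1.45, -1.72 and -0.92 in vehicle tumours. The second combination tumour, which had the largest ribosomal share at 56.6% of its J2 counts, was the highest for Zbp1 and Casp1. Without it the difference was 0.68 for Zbp1 and 0.96 for Casp1, and neither passed. Ripk3, Pycard and Il18 had differences of 1.11 ± 0.52, 1.24 ± 0.59 and 1.97 ± 1.08 that did not pass, although Pycard passed (adjusted p = 0.00946, edgeR) without the first combination tumour, the one with a single count. The median difference of the 10 genes was 1.07, beside 0.00 over all genes. Other lists also differed: 5 of 8 epithelial markers were called higher and 1 lower, with a median of 1.32, and 2 of 6 fibroblast markers were called higher. Fibroblast markers summed to 945 to 3610 CPM in combination J2 libraries and 250 to 267 CPM in vehicle J2 libraries, and their part in the values of the 10 genes was not tested. By plain library totals 0 of the 10 genes were called, with 0.33 ± 0.63 for Gsdmd, 0.41 ± 0.69 for Zbp1 and 0.77 ± 0.67 for Casp1 beside a median of -0.69 over all genes, and the first combination tumour did not lie above all vehicle tumours for Zbp1, at -1.79, or for Casp1, at -1.52. For Gsdmd the second combination tumour, at -0.655, lay below the vehicle tumours, at -0.443, -0.335 and -0.514, by plain library totals. Over all genes that scaling called 74 changes higher and 2531 lower. By library totals without the ribosomal loci 1 was called, Casp1 at 1.42 ± 0.45 (adjusted p = 0.0352, edgeR).

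**Figure D5:**
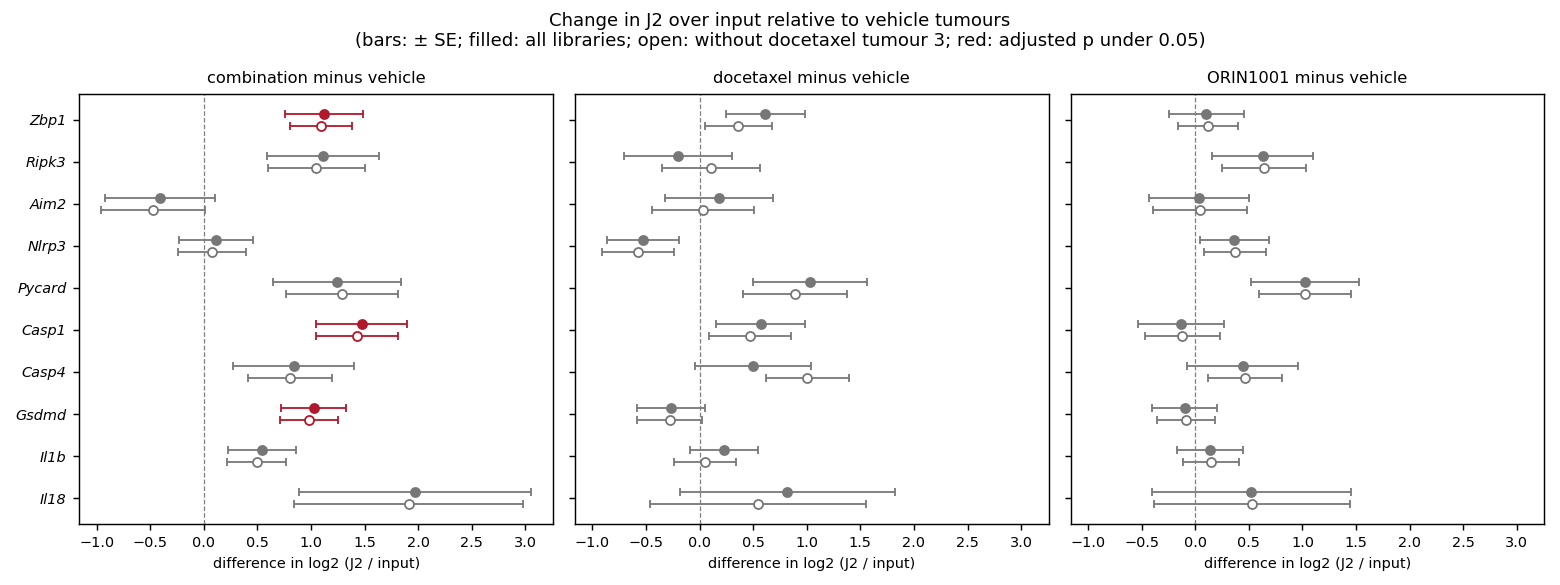
Difference in log2 J2 over input (horizontal axis, ± SE) of combination, docetaxel and ORIN1001 tumours from vehicle tumours for each gene. Filled points use all libraries, open points leave out the third docetaxel tumour and red marks adjusted p under 0.05; Gsdmd at 1.02, Zbp1 at 1.12 and Casp1 at 1.47 are red in the combination panel with the TMM scaling plotted and no gene is red in the other panels.

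These calls were lost in some omissions of a tumour, while the differences kept their direction. Over the 12 omissions the log2 difference was 0.93 to 1.11 for Gsdmd, 0.68 to 1.48 for Zbp1 and 0.96 to 1.75 for Casp1. Gsdmd lost its call without any 1 of the 3 vehicle tumours or the first combination tumour (adjusted p up to 0.0707). Zbp1 lost it without any 1 vehicle tumour or the second or the third combination tumour (up to 0.121), and Casp1 without the first or second vehicle tumour or the second combination tumour (up to 0.0829). The higher ribosomal share and lower depth of the combination J2 libraries run with the treatment in all 3 tumours, and their part in the J2 values of the combination was not tested. For docetaxel and for ORIN1001 the change from vehicle was called for 0% of genes and 0 of the 10 by edgeR, with 730 and 605 genes at unadjusted p under 0.05. For ORIN1001 limma-voom called 3687 genes and 3 of the 10, and DESeq2 0. For docetaxel limma-voom called 0 genes and DESeq2 3.

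Several of these loci share their position with other genes. RefSeq spans on GRCm38.p6 overlap Aim2 (Cadm3 and the tRNA gene n-TRtct5), Il1b (the antisense-named Il1bos), Il18 (Bco2 and Tex12) and Ripk3 (Gm32092). The strand setting of the counting is not given in the sources used here. Reads of such a partner therefore cannot be told apart from those of the gene where they overlap. Zbp1 lies at chr2:173206612-173218959 and Gsdmd at chr15:75862144-75867408, and no other RefSeq gene overlaps either span.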

How the data were processed

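Input and J2 libraries were made with a stranded total RNA kit after ribosomal RNA depletion, per the labels' protocols. The authors deposited gene counts as a table of raw counts per Ensembl gene. The submitters' processing notes name fastp 0.23.2, STAR 2.7.3a, featureCounts 2.0.3 and mm10, with no role or order. How reads mapping to several genes, and strand, were handled is not given in the sources used here. A deposited table of transposable elements was not used.

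From the counts, genes with at least 10 counts at the smaller group size and 15 in total were kept by edgeR's filter, scaled by TMM and tested with edgeR 4.0.16 (R 4.3.3) by the quasi-likelihood test; p-values were adjusted over all genes tested by the method of Benjamini and Hochberg, with a threshold of 0.05. Inputs were fitted with 1 coefficient per treatment over 12 libraries. J2 libraries were fitted over 24 libraries with a block per tumour, because each J2 library was paired with an input, per the series' design text; same-tumour deviations correlated above 0.1 in 10 of 12 tumours, and at 0.0912, 0.0984 and 0.106 in the 3 combination tumours. SE is the log2 fold change divided by the square root of F. CPM was scaled by TMM over all 24 libraries, with a prior count of 2 on the log2 scale, and a count of 0 is bounded at 3 counts. Overlap of groups and likeness of genes used TMM over the inputs alone. The fits were tested on simulated counts with the same spread for every gene and no tumour effect. Changes were planted only in genes of higher counts, so genes at low counts were not covered. Replicates are labelled biological; with 3 against 3 tumours an exact permutation test cannot go below p = 0.1, so no such test is given.

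The 10 genes, the 5 pathway lists and the 9 marker lists were chosen with earlier results of these data known. Some genes of the pathway lists are not reported here and stay out of the lists' counts. All 10 genes are described; from the pathway lists the text names genes past the threshold in a comparison of inputs and those with the smallest p in combination against vehicle. Other genes named as near 0 or as roles of the pathway were picked after their values were seen. Alternatives were DESeq2 1.42.0, limma-voom 3.58.1 with sample weights, DESeq2-style size factors within edgeR (RLE), no filter on low counts, a replicate block (for inputs) or no tumour block (for J2), only the groups compared, leaving out each tumour and, chosen after seeing the data, plain library totals with and without the ribosomal loci. Promoters came from RefSeq (GRCm38.p6).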

Additional observations from a re-analysis of the deposited data

Results flagged for a closer look

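The change in J2 over input between combination and vehicle tumours differed from 0 by a test of the difference itself, edgeR's quasi-likelihood test, for 3 of the 10 genes. The log2 difference was 1.12 for Zbp1 (adjusted p = 0.0306), 1.47 for Casp1 (adjusted p = 0.0184) and 1.02 for Gsdmd (adjusted p = 0.0218), each higher in the combination and, with TMM scaling, in 3 of 3 tumours above the vehicle tumours. By plain library totals 0 of the 3 passed, and the first combination tumour did not lie above all vehicle tumours for Zbp1 or Casp1. For Gsdmd that scaling put the second combination tumour, at -0.655, below the vehicle tumours, at -0.443, -0.335 and -0.514. J2 values of Gsdmd exceeded the inputs of the same tumours in 3 of 3 combination tumours with TMM scaling and in 2 of 3 by plain library totals. By the fitted values, in vehicle tumours J2 stood 2.43-fold below input for Zbp1 and 2.62-fold below for Casp1. The ribosomal share of the combination J2 libraries was higher than in any other J2 library, and its part in these differences was not tested.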

How the results depend on the processing

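Of the values of the 10 genes under an alternative, 2464 kept their direction and side of the threshold, 75 lost a call, 60 gained one, 149 without a call changed sign and 1 called value reversed: J2 over input of Gsdmd in combination tumours, at -0.11 by plain library totals. Counts of the 10 genes called moved as follows. In combination against vehicle inputs 1 gene was called, against 2 by DESeq2, 3 by limma-voom, 2 with only the groups compared, 0 with a replicate block and 0 to 3 on leaving out a tumour; against ORIN1001 inputs the 1 became 3 by limma-voom, 3 with only the groups compared, 0 with no filter, 0 with a replicate block and 0 to 3; against docetaxel inputs the 0 became 1 by DESeq2, 3 by limma-voom, 1 by RLE scaling and 0 to 3; the interaction called 1 by limma-voom. Over all genes the combination against vehicle called 848, against 2367 by DESeq2, 6901 by limma-voom, 37 with the replicate block, 3124 with only the groups compared and 5180 without the third docetaxel tumour, and it fell to 0 without the third vehicle or the second or the third combination tumour and to 2 and 27 without the second and the first vehicle tumour; against docetaxel 1320, against 2225, 5978, 0, 0 and 4397, and 0 without the first or the second docetaxel or the second or the third combination tumour; against ORIN1001 2244, against 9148 by limma-voom, 717 with the block, 5489 and 6507, and 0 without the third ORIN1001 tumour, 38 and 137 without the second and the third combination tumour and 211 without the second ORIN1001 tumour; the interaction 0, against 788 by DESeq2, 3985 by limma-voom and 1527 without that tumour. Replicate numbers do not pair inputs of different treatments: 1 of 18 pairs correlated above 0.1. For J2 over input, limma-voom called 7 of the 10 genes in ORIN1001 tumours and 5 in docetaxel tumours, and 3 for the ORIN1001 change. With no tumour block 0 were called in docetaxel and 0 in combination tumours and 1 for the combination change. Leaving out a tumour gave 0 to 3 for the combination change, 1 to 3 in combination, 0 to 4 in docetaxel and 3 to 5 in vehicle tumours. Over all genes limma-voom called 12495, 10326 and 8658 for J2 over input in vehicle, ORIN1001 and docetaxel tumours and the fit with no tumour block 4489, 2759 and 2181, against 7172, 4867 and 4146. The combination change called 5176, against 8517 by limma-voom and 2937 with no tumour block. With no filter the ORIN1001 and docetaxel changes called 17 and 141 genes, against 0. Plain library totals, and library totals without the ribosomal loci, were scalings chosen after seeing the data. Of the 10 genes they called 0 and 2 in combination against vehicle inputs, 0 and 1 against docetaxel and 0 and 0 against ORIN1001; for J2 over input 7 and 7 over all treatments, 3 and 2 in combination, 0 and 2 in docetaxel, 1 and 4 in ORIN1001 and 5 and 5 in vehicle tumours; and 0 and 1 for the combination change. Over all genes combination against vehicle inputs called 0 and 666, against docetaxel 1188 and 1325, and against ORIN1001 204 and 1777; the combination change called 2605 and 4004. For J2 over input under these scalings, and for the J2 fits with a tumour left out, no share over all genes is given here. Those counts describe the processing and are not read as results about the 10 genes. In combination tumours both scalings called more of all genes lower than higher in J2, as given with Gsdmd above. The causes were not tested. Depth limits Il18 and every value from the third docetaxel input, which held 100 counts over the 10 genes.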
